A study of Mus musculus with 2 samples.

Results

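S100 proteins are small calcium sensors of the EF-hand type that act mostly as dimers. On binding calcium they expose a surface that docks on partners such as annexins, myosin heavy chains and the tumour suppressor p53, and several are also released from cells, where they act on receptors as alarm signals. S100b is widely used as a marker of Schwann cells and other glia, S100a4 (also named fibroblast-specific protein) is often used for fibroblasts, S100a6 and S100a11 are expressed in many growing and mechanically active cells, and S100a8 and S100a9 form calprotectin, an abundant protein of neutrophils and some monocytes.

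The 6 genes described here, S100b, S100a4, S100a6, S100a8, S100a9 and S100a11, were chosen by name, and their entries were taken from every cluster of 3 tables. They held 110 entries, 27 in the control table, 35 in the FGF2 table and 48 in a table of both libraries after integration, among 5238 genes listed in the series. All 6 were listed in the FGF2 and integrated tables, and 4 in the control table, where S100a8 and S100a9 were not listed. The cells came from the stroma of organoids, small cultured tissue aggregates, made from salivary glands of outbred CD-1 mice. The age label reads embryonic day 16 plus 7, and the unit of the 7 is unstated. For the control 5023 cells were captured, and 10107 for the organoids given FGF2, a growth factor for fibroblasts and other cells, per the labels, with 1 library each. How FGF2 was dosed and timed, how many glands were pooled and how stroma was separated is not given in the sources used here. Since the 2 libraries have no replicate, differences between them have no replicate check, no p-value is given, and library and treatment cannot be told apart.

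A cluster entry holds the share of cells with a count of the gene inside and outside the cluster, and the natural log of the ratio of the 2 averages, each with an offset of 1, which understates the difference of a low gene. A gene enters a table only when its log ratio is 0.25 or more in size and its larger share is 25.1% or more. The listed p-values also end at a low upper limit, so a gene can be missing for its p-value, above all in a small cluster. A missing entry therefore does not show absence. The share of a whole library was recovered from these entries. The depth per cell is unknown, so no interval is given. Control clusters 4 and 9 and FGF2 clusters 10 and 13 stand apart, because their listed genes had median shares of 7 to 14.4%, against 66.5 to 84.8% in the other cells.

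On mouse build GRCm38 (mm10), 5 of the 6 genes lie on chromosome 3. S100a4 (chr3:90603771-90606045, plus strand), S100a6 (chr3:90612882-90624181, plus), S100a8 (chr3:90668978-90670035, plus) and S100a9 (chr3:90692632-90695721, minus) sit within 92.0 kb, and S100a11 (chr3:93520488-93526287, plus) lies farther along the chromosome beside S100a10. S100b is apart, at chr10:76253853-76261159 on the plus strand. Sequence before the RefSeq start (GRCm38.p6) is shown for the pair S100a8 and S100a9, which led 1 FGF2 cluster together, and for the pair S100a6 and S100a11, whose log ratios had the same sign wherever both were listed. Each is written 5′ to 3′ on the gene's strand. Capitals mark matches to 4 motifs, which were TATAAA (the box near many core promoters, gene strand only), TGANTCA (AP-1), TTNCNNAA (C/EBP) and GGAATG (TEAD), the last 3 on both strands. The runs are chr3:90668821-90668977 for S100a8, chr3:90695722-90695971 for S100a9, chr3:90612644-90612881 for S100a6 and chr3:93520246-93520487 for S100a11, each ended before the gene's start in GENCODE.
S100a8: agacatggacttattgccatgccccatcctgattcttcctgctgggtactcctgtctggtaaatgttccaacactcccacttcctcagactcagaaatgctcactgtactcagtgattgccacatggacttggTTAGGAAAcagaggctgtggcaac
S100a9: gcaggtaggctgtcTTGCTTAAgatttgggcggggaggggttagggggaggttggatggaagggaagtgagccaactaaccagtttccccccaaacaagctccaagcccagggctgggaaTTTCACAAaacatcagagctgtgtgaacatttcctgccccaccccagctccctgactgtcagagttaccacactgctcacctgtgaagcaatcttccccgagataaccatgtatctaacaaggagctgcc
S100a6: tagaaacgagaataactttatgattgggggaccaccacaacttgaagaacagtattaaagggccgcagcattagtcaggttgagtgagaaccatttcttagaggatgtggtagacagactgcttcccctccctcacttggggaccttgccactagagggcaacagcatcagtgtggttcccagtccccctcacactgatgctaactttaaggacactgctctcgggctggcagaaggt
S100a11: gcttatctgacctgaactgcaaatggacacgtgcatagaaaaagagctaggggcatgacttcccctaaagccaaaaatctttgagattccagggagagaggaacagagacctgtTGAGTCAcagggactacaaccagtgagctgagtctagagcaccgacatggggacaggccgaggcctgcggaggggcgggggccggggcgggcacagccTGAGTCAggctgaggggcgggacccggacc

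The windows of S100a8 and S100a9 shared the C/EBP letters, with 1 match in S100a8 and 2 in S100a9, and 36.8% of 32851 promoters hold such a match in 250 bases. The S100a11 window held 2 AP-1 matches, at 136 to 130 and at 38 to 32 bases before the start, letters found in 6.75% of all promoters. The S100a6 window held none of the 4 motifs, nor did that of S100b. TATAAA, found in 7.59% of promoters, lay 31 to 26 bases before the start of S100a4 and 30 to 25 before that of S100a8, the latter outside the run shown. A match describes letters only.

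Between the libraries, S100b was the member with the largest difference in share. Its share was 19.8% in the control and 39.1% in the FGF2 library, a ratio of 1.97 with a pseudocount of 0.1 percentage points. By a size rule of 1.5-fold, 1 of the 4 members listed in both tables was higher in the FGF2 library (S100b) and 0 were lower. Over all 2318 genes compared, 7.46% were higher and 15.1% lower. At a size rule of 2-fold S100b was not called.

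For S100a4 the shares were 51.6% (control) and 63.2% (FGF2). S100a6 was found in 98.2% and 99.8%, and S100a11 in 94.9% and 92.8%. Without the clusters that stand apart, the control shares of S100a4, S100a6 and S100a11 were 56.4%, 99.2% and 98.8%. The last 2 genes were counted in nearly every cell of both libraries, so a share could not show a higher level. S100a8 was found in 13.6% and S100a9 in 3.16% of the FGF2 cells, and no control share was recovered for either.

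**Figure D1:**
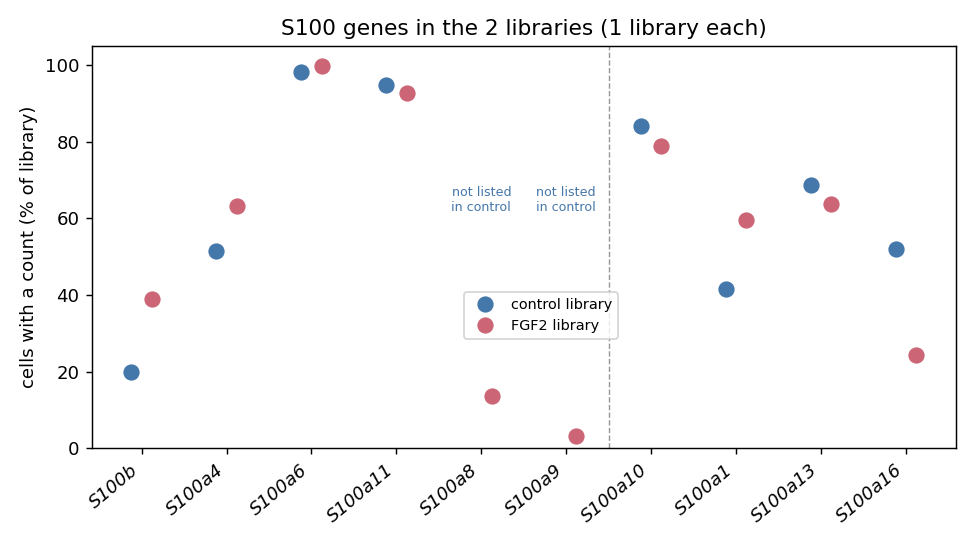
Percentage of cells of each library with a count (vertical axis) of the 6 members (left of the dashed line) and of 4 other S100 genes (right), 1 point per library. S100b and S100a1 sit higher in the FGF2 library and S100a16 lower, while S100a6 and S100a11 are near the top in both.

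Of 18 S100 family symbols searched, 8 were listed in both library tables, 1 of them higher (S100b), 1 lower and 6 within 1.5-fold. The median log2 ratio of the 8 was 0.00, and that of all genes compared was -0.08. The lower one was S100a16, at 51.9% in the control and 24.3% in the FGF2 library, a ratio of 2.13 of control over FGF2. S100a1, best known from muscle, was at 41.6% and 59.5%, within the rule. S100a10, the partner of annexin A2, was at 84.2% and 78.9%, and S100a13 at 68.6% and 63.8%. S100b and S100a16 therefore lay on opposite sides, and the shares of the other 6 differed by less than the rule. S100a6, S100a11, S100a10 and S100a13 had control shares too high for a 1.5-fold rise and could only have been called lower. Their place within the rule does not show a like level in the 2 libraries.

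Among annexins and other binding partners, 10 of 15 symbols were compared, and 0 were higher and 0 lower by the size rule (median log2 ratio -0.10). Over all genes compared, 7.46% were higher and 15.1% lower. Tpm1 (93.6%), Anxa5 (89.7%), Tpm2 (87.1%), Ahnak (85.6%) and the 3 genes named next had control shares too high for a 1.5-fold rise. They could only have been called lower, so the count of 0 higher was largely fixed by the measure. Anxa2, which joins S100a10 at the membrane, was at 89.5% and 81.1%, Anxa1, which binds S100a11, at 87.6% and 83.0%, and Myh9, the non-muscle myosin heavy chain bound by S100a4, at 81.7% and 67.0%. Of 12 receptor symbols only Alcam, Bsg and Fgfr1 were compared, and all 3 lay within the rule. Bsg (89.8%) and Fgfr1 (75.8%) also had control shares too high to be called higher. Ager and Tlr4, the receptors usually named for secreted S100 proteins, were not listed in any of the 3 tables. Among 6 other alarm signals 3 were compared. Lcn2, lipocalin 2 of neutrophils and stressed epithelium, had shares of 8.79% in the control and 43.9% in the FGF2 library, while Saa3, serum amyloid A3, was at 57.5% and 8.81%, and Hmgb1, a chromatin protein, at 93% and 95%.

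S100b marked different clusters in the 2 libraries. In the authors' deposited table for the control library it was listed in 1 cluster only, cluster 10 (1.15% of the cells), at 82.8% of the cells against 19.1% of the other cells (natural log ratio 1.33). The control cluster carried glial genes, 12 of 13 Schwann or glial markers being listed as higher and 0 as lower, where 21.9% of all listed genes were higher. In the authors' deposited table it held Sox10, the transcription factor of the Schwann lineage, in 94.8% of its cells against 0.9%. The level of S100b there was 3.65 times the library mean, offset included. Even so, the cluster held only 4.81% of the control cells with an S100b count, since 19.1% of all remaining cells had one.

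In the FGF2 library, S100b was highest among its listed clusters in stromal cluster 7 (6.05% of the cells, led by Igfbp5, Il11 and Slpi). There, per the authors' deposited table, it was found in 75% of the cells against 36.8% of the other cells (log ratio 0.87). Its level in cluster 7 was 2.19 times the library mean, and the cluster held 11.6% of the S100b-positive cells. Per the authors' deposited table, S100b was lower in clusters 0 (24.2% of the cells), 2 (16.1%), the mast cell-led cluster 15 (14.1%) and the epithelial-like cluster 11 (11.7%). The genes listed for cluster 15 had a median share of 21.9% against 62.75% in the other cells, and those of cluster 11 28.5% against 58.8%. The part of this lower detection in their S100b shares was not tested. Over the 12 clusters where S100b was not listed, which made up 63.2% of the cells, the mean share was 44.9%, above the 4 low clusters and below cluster 7.

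One of those 12 was FGF2 cluster 16 (0.307% of the cells), the counterpart by markers of control cluster 10. It listed 7 of 13 Schwann or glial markers as higher (5.33% of all listed genes were higher) and 0 as lower, among them, in the authors' deposited table, Sox10 in 48.4% of its cells. S100b was thus listed for the control glial cluster and not for the FGF2 one. The genes listed for cluster 16 had a median share of 16.1% against 62.7% in the other cells, while those of control cluster 10 had 56.9% against 59%. The part of this lower detection in the missing entry, or of the limit on p-values in so small a cluster, was not tested.

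**Figure D2:**
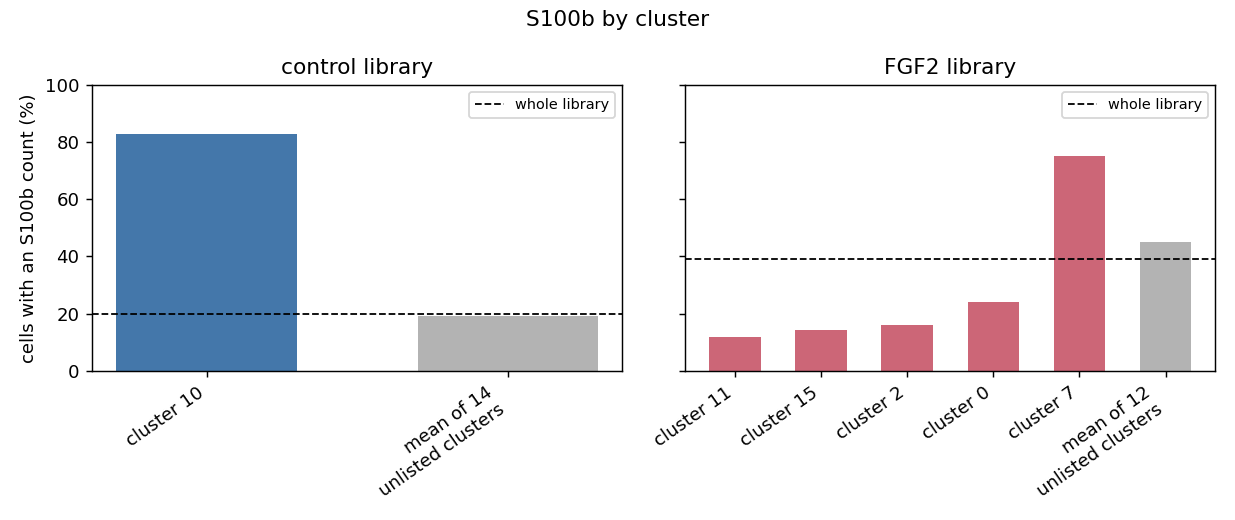
Percentage of cells with an S100b count (vertical axis) in each cluster that lists the gene (coloured bars) and as the mean over the clusters that do not (grey), with the whole library as a dashed line. Control cluster 10 stands at 82.8% over a library share of 19.8%, and FGF2 cluster 7 at 75% over a library share of 39.1%.

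S100a4 was not restricted to fibroblast clusters. In the control library, per the authors' deposited table, its highest listed share was in the Schwann or glial-like cluster 10, 79.3% against 51.2% of the other cells (log ratio 0.90), followed by stromal cluster 2 (led by Spp1 and Cxcl13) at 67% against 49% (0.56). The mean share over the 7 control clusters that did not list S100a4 was 70.1%, above that of cluster 2. By the same deposited values from the authors' deposited table, it was lower in cluster 1 (led by Crabp1 and Mmp3) at 30.6% (log ratio -0.76) and in cluster 6 (led by Mgp) at 34.5% (-0.77). Cluster 1 is a stromal cluster, so the listed stromal clusters lay on both sides of the library share. The lowest shares in the authors' deposited table were in the epithelial-like clusters 9 (9.2%, log ratio -0.27) and 13 (11.5%, -0.58). Cluster 9 is one of those that stand apart with low shares of their listed genes. In cluster 0 the authors' deposited table gives S100a4 in 52.5% of the cells against 51.4%, but a log ratio of -0.54, so the shares were alike while the average was lower.

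In the FGF2 library the authors' deposited table gives S100a4 its highest listed share in the contractile cluster 4 (led by Acta2 and Tagln), 92% against 60.8% of the other cells (log ratio 0.71). Cluster 6 (led by Cavin2 and Cemip) followed in the authors' deposited table at 79.9% (0.30). The epithelial-like cluster 11 (24.4%), the mast cell-led cluster 15 (25%) and the glial-like cluster 16 (25.8%) had the lowest listed shares in the authors' deposited table. The glial-like cells were therefore listed as higher in S100a4 in the control library and as lower in the FGF2 library (log ratio -0.49), a difference that was not tested and that goes with the lower detection in cluster 16 given above. Clusters 11 and 15 also had the lower detection given above, and its part in their S100a4 shares was not tested.

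S100a6 was found in nearly every cell of the stromal clusters that listed it outside those that stand apart, while S100a11 ranged there from 84.9% of the cells of FGF2 cluster 5 to 100% of those of FGF2 cluster 6, per the authors' deposited table. The plot of listed log ratios shows both genes higher in FGF2 cluster 4 and control clusters 3 and 5. Both were also higher in control cluster 4 and FGF2 cluster 13, which stand apart and listed 6 and 5 of 8 myofibroblast markers as higher. Control cluster 7 (3 of 8 markers higher) listed neither gene. FGF2 cluster 11 (4 of 8 higher) listed S100a6 as lower and did not list S100a11. In the authors' deposited table for the FGF2 library, cluster 4 had a log ratio of 0.61 for S100a6 and 0.61 for S100a11, so each stood at 1.72 times its library mean. Control clusters 3 and 5, which listed 4 and 7 of 8 myofibroblast markers as higher (3.24% and 3.69% of all listed genes) and 0 as lower, had log ratios of 0.34 and 0.33 for S100a6 and of 0.28 and 0.26 for S100a11 in the authors' deposited table. In FGF2 cluster 4, 3 of 6 members were listed as higher (S100a4, S100a6 and S100a11) and 0 as lower, where 6.44% of all genes listed in the table were higher. The annexins and partners there had 7 of 15 symbols listed as higher and 0 as lower, among them Anxa2 (98.9% of the cells against 79.6% in the authors' deposited table, log ratio 0.67) and Anxa3 (98.1% against 56.5%, 0.89).

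Lower levels of the pair were found in other stromal clusters. In control cluster 1 the authors' deposited table gives log ratios of -0.65 for S100a6 and -0.73 for S100a11, with 3 of 6 members listed as lower and 0 as higher (4.16% of all listed genes were lower there). Cluster 6 had -0.39 and -0.45 in the authors' deposited table, with 3 of 6 lower again (3.44% of all listed genes). In FGF2 cluster 5 (led by Igfbp5, Cd24a and Nr4a2), where 3 of 6 members were lower (3.83% of all listed genes), the values in the authors' deposited table were -0.59 and -0.71. In FGF2 cluster 2, 3 of 6 members were lower (3.47% of all listed genes), S100a11 among them, while S100a6 was not listed. In cluster 7 also 3 of 6 were lower (4.32%), the pair and S100a8, although S100b was higher there. The S100a8 share was higher in cluster 7, and the limit of its log ratio is given below. Clusters 11, 15 and 16, of other cell classes, had 3, 4 and 3 of 6 lower, but there 16.5%, 33.5% and 29.8% of all listed genes were lower. S100a11 was not listed in cluster 11. S100a6 was nevertheless found in 99.9% of the cells of both control cluster 1 and FGF2 cluster 5, per the authors' deposited table.

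**Figure D3:**
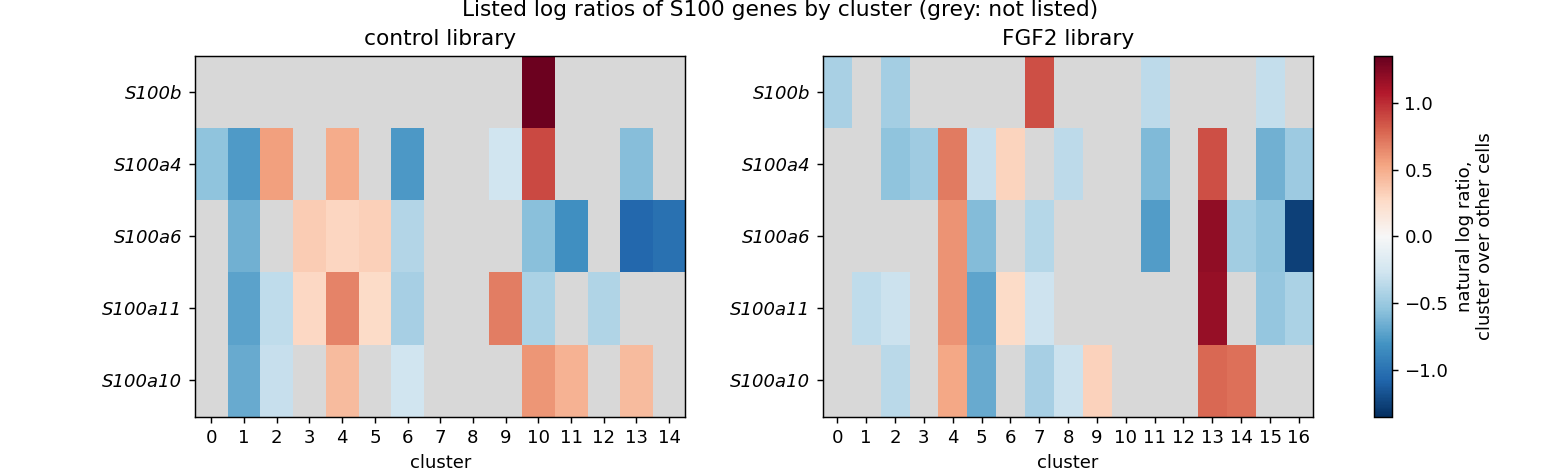
Natural log ratio of each cluster over the other cells (colour) for S100b, S100a4, S100a6, S100a11 and S100a10 (rows) in every cluster (columns) of the control and FGF2 libraries, with unlisted entries in grey. S100a6 and S100a11 share red in control clusters 3 to 5 and FGF2 clusters 4 and 13, and share blue in control clusters 1, 6 and 10 and FGF2 clusters 5, 7, 15 and 16.

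In most clusters with markers of other cell classes S100a6 was listed as lower, control cluster 9 being an exception in which it was not listed. In the control library the authors' deposited table gives log ratios of -1.06 in the basal epithelial-like cluster 13, -1.01 in the endothelial-like cluster 14, -0.83 in the macrophage-like cluster 11 and -0.56 in the glial-like cluster 10. The FGF2 values in the authors' deposited table were -1.26 in the glial-like cluster 16, -0.76 in the epithelial-like cluster 11, -0.54 in the mast cell-led cluster 15 and -0.47 in cluster 14. The gene was still found in 90.6% or more of the cells of these 8 clusters, per the authors' deposited table. S100a6 thus had a count in most cells of each of them, with a lower average. S100a11 was not listed in the macrophage-like, basal epithelial-like and endothelial-like control clusters.

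Of the 4 clusters with low shares of their listed genes, control cluster 4 and FGF2 cluster 13 listed 3 members each, all as higher, control cluster 9 listed S100a11 as higher and S100a4 as lower, and FGF2 cluster 10 listed no member. In control cluster 4 (10.6% of the cells) the authors' deposited table gives S100a11 in 69.1% of the cells against 97.9%, but a log ratio of 0.67, and S100a4 in 23.5% against 54.9% with 0.50. There 3 of 6 members were listed as higher and 0 as lower (2.63% of all listed genes were higher). FGF2 cluster 13 (1.41% of the cells) had the highest log ratios of the pair in the authors' deposited table, 1.20 for S100a6 and 1.18 for S100a11, with 3 of 6 members higher (9.88% of all listed genes). Fewer cells had a count in control cluster 4 and the averages were higher, and the part of depth per cell in this was not tested.

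Within the family, S100a6 and S100a11 were both listed in 6 control clusters and 6 FGF2 clusters, and their log ratios had the same sign in all 6 of each. S100a4 and S100a11 had the same sign in 7 of 7 FGF2 clusters, but in 3 of 6 control clusters. Over all 17 FGF2 clusters, unlisted entries set to 0, Pearson's r was 0.81 for S100a6 with S100a11 and 0.80 for S100a4 with S100a11, and over the 15 control clusters it was 0.43 and 0.17. Clusters of 1 library share its cells, depth and normalization, and these values are descriptions only. In the FGF2 library S100b had r of 0.30 with S100a4, 0.01 with S100a6 and 0.02 with S100a11.

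By the same measure, the genes most like each member outside the 6 were named. For S100a11 in the control library these were Anxa3 (r = 0.91), Hist1h2bc (0.82) and Myl12a (0.81), and in the FGF2 library 2200002D01Rik (0.91), Hcfc1r1 (0.91) and Gsta4 (0.88). S100a6 was most like Asns (0.86), Atf5 (0.84) and Gpr176 (0.83) in the control library and Nap1l1 (0.90), Rps27l (0.90) and Slc25a3 (0.89) in the FGF2 library. The control genes nearest to S100a4 were Tubb2a (0.73), Nid2 (0.72) and Anxa2 (0.70), and the FGF2 genes were Ddah1 (0.88), Cavin2 (0.81) and Gsto1 (0.81). S100b in the FGF2 library was most like Eml1 (0.79), the cytokine gene Il11 (0.79) and Mllt11 (0.77). No gene was among the 3 nearest of a member in both libraries.

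S100a8 and S100a9 were concentrated in 1 small cluster of the FGF2 library, cluster 14 (0.651% of the cells), which they led. For S100a9 the authors' deposited table gives 27.7% of its cells against 3% of the other cells, with a log ratio of 5.16. S100a8 was found in 36.9% against 13.4% with 4.80 in the authors' deposited table. How many of its cells had a count of both genes, or of neither, is unknown. S100a9 had a level 81.8 times its library mean there, and S100a8 68.2 times. Each level rests on few cells of 1 library, the part of this small cluster with a count of the gene.

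From these ratios and the size of the cluster, the smallest part of a gene's total level that the offset allows can be computed. For S100a9 at least 53.2% of the total level of the FGF2 library lay in cluster 14, which held 5.70% of the cells with an S100a9 count. At least 44.4% of the total S100a8 level lay there, in 1.77% of the cells with an S100a8 count. Cluster 14 thus held a larger part of the level of each gene than of the cells with a count of it.

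**Figure D4:**
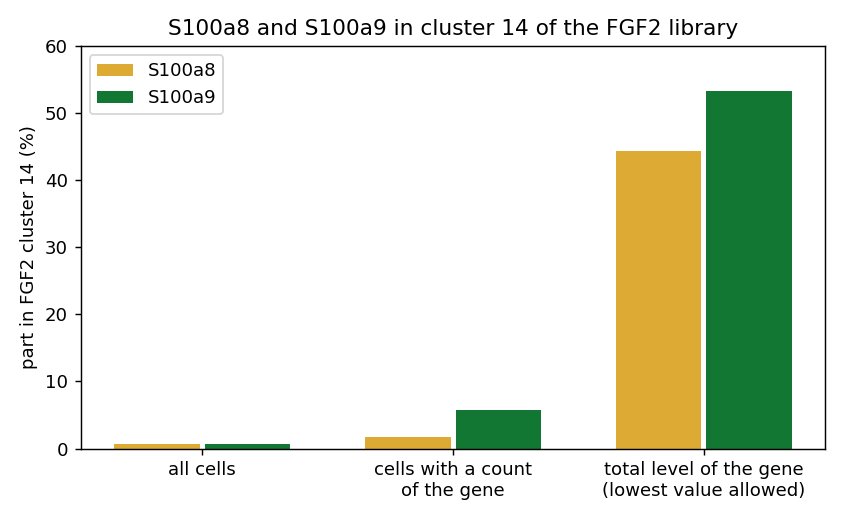
Part of the FGF2 library (vertical axis, %) that falls in cluster 14, for all cells, for cells with a count of the gene, and for the total level of the gene (the lowest value the offset of 1 allows). Cluster 14 holds 0.651% of the cells but at least 44.4% of the S100a8 level and 53.2% of the S100a9 level.

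Neutrophil markers other than these genes were mostly unlisted in cluster 14. Of 16 symbols 3 were listed, all as higher, where 9.94% of all genes listed in the FGF2 table were higher in this cluster and 15.6% lower. In the authors' deposited table these were Lcn2 (50.8% of its cells against 43.9%), Clec4d (27.7% against 13.4%) and Cxcl2 (27.7% against 6.1%). The first 2 were not particular to cluster 14. Clec4d was also listed as higher in cluster 1 (28.3%), and Lcn2, listed in 12 FGF2 clusters, was higher in cluster 5 (75.7%). The granule and receptor genes Camp, Elane, Csf3r and Cxcr2 had no entry in any of the 3 tables. Of 14 macrophage markers 5 were listed as higher, among them in the authors' deposited table Fcer1g (84.6%), Tyrobp (61.5%), both signalling adaptors of myeloid cells, and Lyz2 (29.2%). The fibroblast gene Pdgfra was found in 50.8% of the cells of cluster 14 in the authors' deposited table, against 84.4% of the other cells. Of 8 fibroblast markers 7 were listed as lower. The cluster is called by its number here.

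Outside cluster 14, S100a8 was listed in stromal cluster 7 alone, where the authors' deposited table gives it in 25.4% of the cells against 12.8%, with a log ratio of -0.51. The share was higher there and the average lower, but the cells it was set against include cluster 14. That cluster held at least 44.4% of the total S100a8 level, so the log ratio does not place cluster 7 below the remaining clusters. The mean share of S100a8 over the 15 clusters that did not list it was 12.6%, and that of S100a9 over 16 clusters was 3.0%. These are means, and the share in each of those clusters is unknown. The part of free RNA in them was not tested.

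The entries of the integrated table are read as differences of integrated values and not of expression. S100a8 was listed as lower in 10 of its 14 clusters and S100a9 in 11, and neither was listed as higher in any. That does not mean that no cluster was high. S100a8 was not listed in 4 clusters with 23.8% of the cells, and S100a9 in 3 with 4.50%. Since every listed cluster was lower, the average over the unlisted ones was higher. Shares and log ratios parted there too. In the authors' deposited table, integrated cluster 2 (led by Acta2 and Tagln) had S100a9 values above 0 in 71.5% of the cells against 27.3%, with a log ratio of -0.61, and S100a8 in 76.7% against 35.2%, with -0.71. Over all integrated cells 41.3% had an S100a8 value above 0 and 33.9% an S100a9 value, where the cells of the FGF2 library alone gave 13.6% and 3.16%. The cells and the values behind these shares differ.

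For the other members, in integrated cluster 2 the authors' deposited table gives log ratios of 0.43 for S100a6, 0.54 for S100a11 and 0.34 for S100a4. S100b was listed as higher in 1 integrated cluster, cluster 1 (led by Igfbp5, Slpi and Il11, the leading genes of FGF2 cluster 7 too), with a log ratio of 0.61 in the authors' deposited table, although its share there was 54.7% against 59.3% of the other cells. Integrated cluster 12 (led by Apod, Atf3 and Postn) did not list S100b and had an S100a6 log ratio of -1.16 in the authors' deposited table.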

How the data were processed

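Single-cell RNA sequencing of 1 control and 1 FGF2 library was analysed from 3 deposited tables of cluster comparisons. Cell Ranger 4.0 and mm10 are named by the submitters' processing notes. Cell filters, doublet treatment, clustering and test were not given in the sources used here. All natural log ratios, the fractions of cells with a value above 0 and the p-values were computed by the authors, per the file headers. The p-values treat cells as replicates and are not printed. The base of the log was checked on genes listed with a share of 0 in several clusters. The average outside had a median coefficient of variation of 0.000515% (control) and 0.000844% (FGF2) with the natural log, and of 0.00802% and 0.00563% with base 2.

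A gene's library share is the mean of its shares inside and outside a cluster, weighted by the cells on each side. Least squares over genes listed in at least 2 clusters (2077 control, 1490 FGF2) gave the cluster parts and library shares. On simulated tables the largest error of a share was 0.051 points (control, 4419 genes) and 0.0518 (FGF2, 3058 genes). Libraries were compared by (percentage + 0.1), with a floor of 0.5% in 1 library. The rule for named genes took all 6 members in every cluster listing them, the 3 genes of highest Pearson correlation for each member listed in at least 3 clusters of a library, and listed genes of the family, partner and marker lists in the clusters described. Cluster names rest on marker lists. Counts of members within a cluster are set beside those of all listed genes where at least 3 members had 1 direction, as are counts of markers in the clusters described, both chosen after seeing the data. The members and lists were chosen with earlier results of these data known. Gene positions came from GENCODE M21 and promoter windows, matched for 6 of 6 members, from RefSeq. Python 3.11.15, numpy 2.4.6 and pandas 2.3.3 were used.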

Additional observations from a re-analysis of the deposited data

How the results depend on the processing

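Scaling the cluster parts to 100%, a pseudocount of 1 percentage point and no floor moved no value beyond its limit. The limit was a binomial interval over the captured cells for a share, the size rule for a ratio and 1.5-fold for a count. The interval treats cells as replicates, so a share within it says nothing on the spread between libraries. With a size rule of 2-fold S100b (1.97) was no longer called, leaving 0 members and 0 family genes higher, and 96 genes higher and 174 lower in all, against 173 and 351. Without control clusters 4 and 9 and FGF2 clusters 10 and 13 the control shares were 56.4% for S100a4, 99.2% for S100a6 and 98.8% for S100a11, and the other 17 values compared stayed within their limits. With the log ratio read as base 2, the levels relative to the library mean were 29.1 for S100a9 and 23.7 for S100a8 in FGF2 cluster 14, 2.46 for S100b in control cluster 10, 1.74 for S100b in FGF2 cluster 7, and 1.46 for both S100a6 and S100a11 in FGF2 cluster 4. The lowest parts of the total level in FGF2 cluster 14 were then 19.0% for S100a9 and 15.5% for S100a8. Over only the clusters listing both genes, at least 4, the first gene changed in all 7 patterns, and 6 of them shared none of the 3 nearest genes with the values reported, so the named genes depend on how unlisted entries are treated. No paired analysis was possible because each group has 1 library. The depth per cell is unknown, which limits every share of a low gene.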
